A study of Callithrix jacchus and Rattus norvegicus and Loxodonta africana with 31 samples.

Results

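The genes described here are 9 markers of cortical neurons: Slc17a7, Camk2a, Tbr1, Neurod6, Nrgn, Cux2, Lmo3, Rorb and Bdnf. They were looked up by symbol, ignoring case, in the tables of expression values of the common marmoset and of the rat. In the rat all 9 were found among 20486 genes. In the marmoset 6 of the 9 were found among 19681 genes (SLC17A7, CAMK2A, TBR1, NRGN, RORB and BDNF). The marmoset rows of the other 3 carry different names in the table and were added through their Ensembl gene IDs: NEUROD6, CUX2 and LMO3 are counted apart from the 6 throughout.

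These genes describe the excitatory projection neurons of the cerebral cortex, which release glutamate and lie in layers with their own transcription factors. Slc17a7 loads glutamate into synaptic vesicles, Camk2a and Nrgn act in calcium signalling behind the synapse, and Tbr1, Neurod6, Cux2, Rorb and Lmo3 are transcriptional regulators used to tell cortical neurons and layers apart. Bdnf encodes a neurotrophin that cortical neurons make and release. Not all of them are particular to the cortex: Slc17a7 is also the transporter of cerebellar granule cells, and Camk2a, Nrgn and Bdnf are used in the hippocampus and other forebrain regions.

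The series of 31 samples was made to study genes of the Y chromosome, and 26 of its samples, 14 of marmoset and 12 of rat, are of the species used here. In each species heart, kidney and liver were taken from 1 female and 1 male, and both the frontal cortex and the cerebellum are labelled for each of these animals. There is 1 ovary sample per species, 1 testis sample in the rat and 3 testis samples from 2 individuals in the marmoset. No treatment, age or strain is given. The unit is FPKM, in which sequenced fragments are scaled by transcript length and by the size of the library, so that levels of different genes can be set side by side per length.

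The brain columns need a word before any result. Each table holds 1 column for female and 1 for male brain, while the labels give a frontal cortex and a cerebellum sample for each sex; how these were joined is not given in the sources used here. Brain below therefore means the columns so named, and n = 2 for brain is 1 column per sex. Since each sex is 1 animal, sex, animal and the make-up of a column cannot be told apart. The marmoset has 1 testis column for 3 samples, and whether it is a mean or 1 of them is not stated. It carries no SD, and the ovary and rat testis values are single libraries. The sequencing depth is unknown, because the tables hold no counts, and an exact 0 can be a failed estimate: SERPINA1, a main plasma protein gene of the liver, is listed at 0 in marmoset male liver and at 13490 FPKM in female liver. The other tissues carried their own markers: ACTC1, cardiac actin, stood at 3075 and 4372 FPKM in the marmoset hearts, Kap at 18080 and 17410 FPKM in the rat kidneys, and Ahsg, a plasma protein gene, at 14660 and 12460 FPKM in the rat livers.

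**Figure D1:**
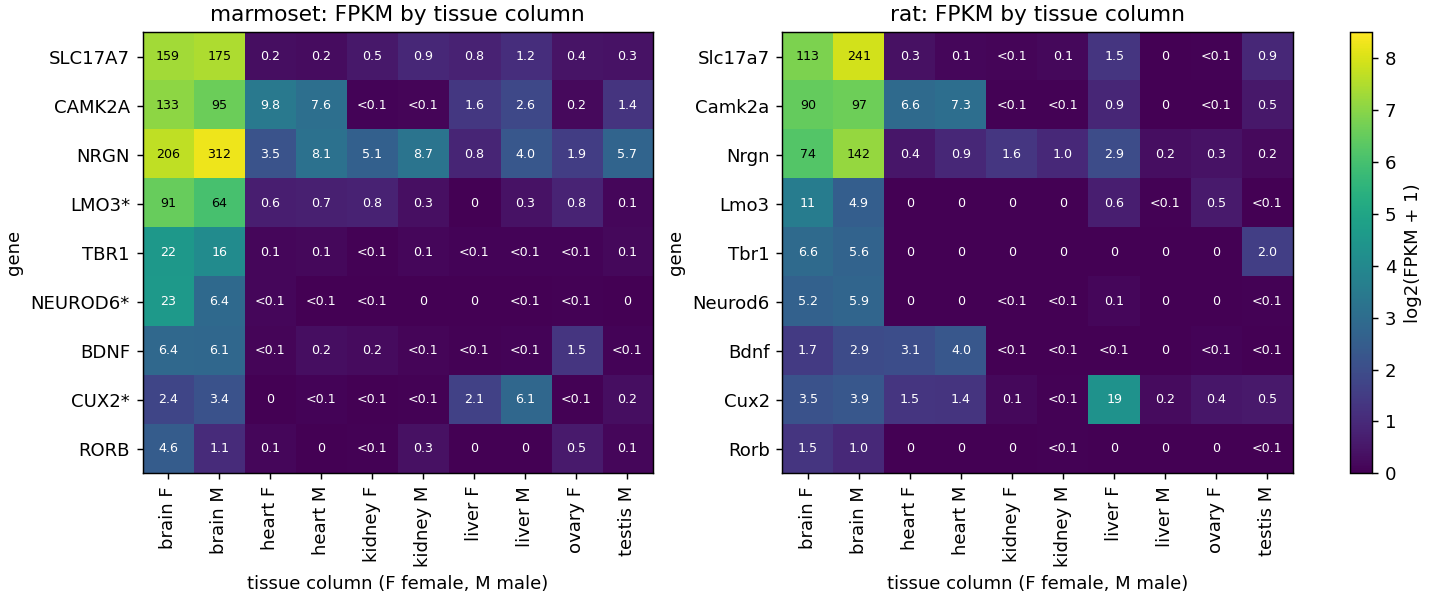
FPKM of the 9 genes in every tissue column of the marmoset (left) and the rat (right); colour is log2(FPKM + 1), the printed number is the FPKM, 0 is a value listed at exactly 0, F and M are the female and male column, and an asterisk marks the 3 marmoset rows added by gene ID. SLC17A7, CAMK2A and NRGN stand highest in both brain columns of both species. The cells that stand out elsewhere are Camk2a in heart, Cux2 in liver, rat Bdnf in heart, and marmoset NRGN in heart, kidney, male liver and testis.

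Slc17a7, the vesicular glutamate transporter, was among the strongest of the 9 in both species. In the marmoset it stood at 158.8 FPKM in female and 175.1 FPKM in male brain, against at most 1.15 FPKM in the 6 heart, kidney and liver libraries. Its level in the rat was 113.4 FPKM in female and 240.7 FPKM in male brain and at most 1.495 FPKM in the 6 other libraries, the highest being female liver. The brain columns thus lay far above every other library in both species, but in the rat they differed from each other 2.12-fold. On log2(FPKM + 1), brain was higher than the mean of heart, kidney and liver by 6.72 ± 0.18 in the marmoset (limma estimate ± SE, adjusted p = 5.33e-06) and by 7.01 ± 0.41 in the rat (adjusted p = 2.31e-05). A bulk level cannot tell fewer cells of a type from less RNA per cell.

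Called higher means an adjusted p under 0.05, by limma with Benjamini-Hochberg adjustment over all tested genes, and a difference of at least 1 on log2(FPKM + 1). Tested genes had at least 1 FPKM in at least 2 of the 8 brain, heart, kidney and liver libraries. In the marmoset all 6 genes found by symbol were tested and called higher in brain than in the mean of the 3 other tissues, as were 17% of the 15100 genes tested. In the rat 8 of the 9 were tested and 6 called higher, beside 17.6% of 14560 genes. None of the 6 and 8 was called lower, a call made for 28.8% of all tested marmoset and 27.1% of rat genes. These genes were picked as brain markers, and 4 of the 6 marmoset and 4 of the 8 rat genes reached the filter only through the brain columns, so that they had to differ. The counts are therefore descriptions of these tables.

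Against each tissue alone the count was 6 of 6 in the marmoset in every case, with 17.8% of all tested genes called higher than in heart, 16.8% than in kidney, 21.4% than in liver and 11.2% than in each of the 3. Of the 8 rat genes, 6 were higher than in heart, 7 than in kidney, 7 than in liver and 6 than in each. The shares of all tested rat genes were 18.5%, 17.3%, 22.7% and 12.1%. Both brain columns lay above all 6 other libraries for 6 of 6 marmoset and 6 of 8 rat genes; the same was true of 17.9% of all tested marmoset genes and 19% of the rat ones. The rat exceptions were Cux2 and Bdnf. The 3 marmoset rows added by gene ID were all called higher than the mean of the other tissues, and CUX2 was the one not called against liver. Of these rows NEUROD6 and LMO3 reached the filter only through the brain columns, so that they, too, had to differ. Across all tested genes the median difference between brain and the mean of the other tissues was -0.34 in the marmoset and -0.28 in the rat, and -0.12 and -0.17 after quantile normalization, so the differences of the 9 genes are a little larger relative to the typical gene.

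**Figure D2:**
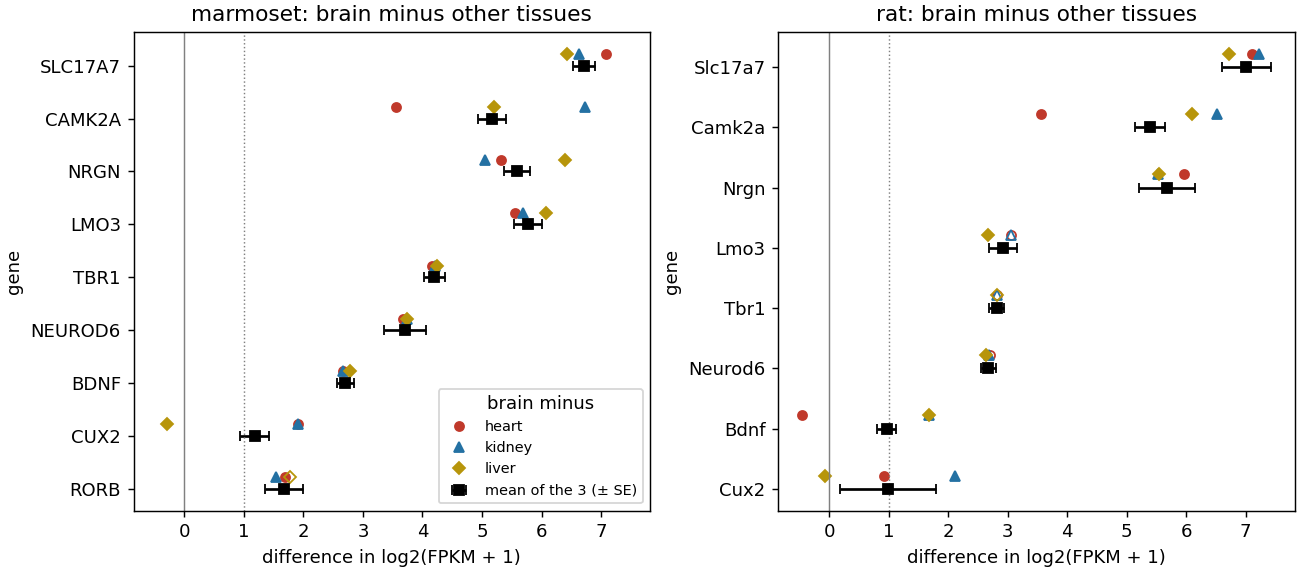
Difference of brain from the other tissues on log2(FPKM + 1), by gene, for the marmoset (left) and the rat (right); black squares are the limma estimate against the mean of heart, kidney and liver with its SE, coloured symbols the estimates against each tissue, hollow ones comparisons with a tissue listed at 0 in both libraries, and the dotted line is the threshold of 1. Camk2a is nearest to brain in heart in both species, CUX2 lies left of 0 against liver in both, and Bdnf lies left of 0 against heart in the rat alone; rat Rorb did not pass the filter and is not drawn.

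Camk2a, the alpha subunit of the calcium/calmodulin-dependent kinase II of synapses, was high in brain and had a second, lower level in heart. Its levels in brain were 132.9 and 95.11 FPKM in the female and male marmoset and 89.7 and 97.09 FPKM in the rat. In heart they were 9.76 and 7.60 FPKM in the marmoset and 6.62 and 7.34 FPKM in the rat. Heart and brain did not overlap in either species, and the brain mean was 13.1 and 13.4 times the heart mean. Kidney held almost none of it, at most 0.0862 FPKM in the marmoset and 0.0376 FPKM in the rat. In the test among heart, kidney and liver, Camk2a differed in both species, with a range of tissue means of 3.17 in the marmoset (limma F-test, adjusted p = 0.000531) and 2.95 in the rat (adjusted p = 0.000519). Such differences among the 3 tissues were common: they were called for 49.3% of the tested marmoset genes and 50.1% of the rat ones.

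Nrgn, neurogranin, which binds calmodulin in dendrites, had the highest brain level of the 9 in the marmoset. It stood there at 206.2 FPKM in female and 311.8 FPKM in male brain, and in the rat at 74.13 and 142.0 FPKM. Marmoset NRGN was not absent elsewhere: it lay between 0.841 and 8.70 FPKM in heart, kidney and liver and at 5.71 FPKM in the testis column. The male library had the higher value in each of these 3 tissues, as in brain. Rat Nrgn stayed at or below 2.95 FPKM outside brain, the highest value being female liver. Brain was higher than the mean of the other tissues by 5.59 ± 0.22 in the marmoset (limma, adjusted p = 7.44e-06) and by 5.68 ± 0.47 in the rat (adjusted p = 9.29e-05). Among heart, kidney and liver marmoset NRGN differed by 1.35 (limma F-test, adjusted p = 0.0117), a call that was lost without the block for animal (adjusted p = 0.24) and without the female kidney (1.18, adjusted p = 0.0518) or the female liver library (1.01, adjusted p = 0.0907).

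Tbr1 and Neurod6 are transcription factors that were close to absent from heart, kidney and liver in both species. Tbr1, a T-box factor of deep-layer and early-born cortical neurons, was at 22.24 and 16.11 FPKM in female and male marmoset brain and at no more than 0.144 FPKM in the 6 other libraries. In the rat it was at 6.60 and 5.56 FPKM in brain and was listed at 0 in all 6 heart, kidney and liver libraries, so that no fold is given; the rat testis library had 1.99 FPKM. The marmoset difference was 4.20 ± 0.17 on log2(FPKM + 1) (limma, adjusted p = 7.99e-06). Neurod6, a basic helix-loop-helix factor of differentiating cortical neurons, was at 5.21 and 5.87 FPKM in rat brain and at most 0.104 FPKM in the other 6 libraries, a difference of 2.68 ± 0.13 (limma, adjusted p = 9.78e-06). Marmoset NEUROD6, one of the rows added by gene ID, stood at 23.18 FPKM in the female and 6.42 FPKM in the male brain column and at most 0.0965 FPKM in the other 6. Its brain columns differed 3.61-fold from each other, yet both lay far above every other tissue (3.71 ± 0.35, limma adjusted p = 0.000188).

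Lmo3, a LIM-only cofactor of transcription factors, came next after the 3 synaptic genes by mean brain level in both species. In marmoset brain LMO3 reached 90.72 and 64.44 FPKM, with at most 0.753 FPKM in heart, kidney and liver (5.77 ± 0.23, limma adjusted p = 7.93e-06). Rat Lmo3 stood at 10.78 FPKM in female and 4.86 FPKM in male brain. It was listed at 0 in both hearts and both kidneys and stood at 0.636 FPKM in female and 0.0415 FPKM in male liver. The rat difference from the mean of the 3 tissues was 2.93 ± 0.23 (limma, adjusted p = 7.48e-05). The 2 tables were normalized apart, so the difference between species was not tested.

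Rorb, a retinoid-related orphan receptor of layer 4 neurons, had the lowest mean brain level of the 9 in both species, though in the marmoset its range overlapped that of CUX2, which was lower in the female column. Its marmoset levels were 4.58 FPKM in the female and 1.09 FPKM in the male brain column, and it was listed at 0 in male heart and both livers and reached 0.313 FPKM in male kidney. Both brain columns lay above the rest, and the difference was 1.67 ± 0.32 (limma, adjusted p = 0.00415). Against single tissues the marmoset RORB call was near the threshold: the adjusted p against heart rose from 0.0123 to 0.0718 without the female and 0.0543 without the male heart library, and that against kidney from 0.0161 to 0.118 without the female kidney, where the difference was 1.11. In rat brain Rorb was at 1.48 FPKM in the female and 0.953 FPKM in the male column. The 6 heart, kidney and liver libraries of the rat were listed at 0 except male kidney, at 0.0265 FPKM. The rat gene had 1 library at 1 FPKM or more and was left out by the filter. Fitted without the filter, over 19615 genes, brain was higher by 1.13 ± 0.0883 (limma, adjusted p = 0.00069).

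Cux2, a homeobox factor of upper-layer cortical neurons, was set apart from the other 8 by its values in liver. In rodent liver Cux2 is also known as a gene of females. Rat brain had 3.45 FPKM in the female and 3.90 FPKM in the male column, while liver had 19.2 FPKM in the female and 0.182 FPKM in the male, a 106-fold difference between 2 single libraries. The female liver value was 5.56 times that of the same sex's brain column and the highest Cux2 level in the rat table. The rat hearts stood at 1.49 and 1.44 FPKM, and the kidneys at 0.124 and 0.0407 FPKM. Brain was not called against the mean of the 3 tissues (0.99 ± 0.81, limma adjusted p = 0.319), nor against liver (-0.07 ± 0.99, adjusted p = 0.963). Without the female liver library brain was called higher than the mean by 1.67 (limma, adjusted p = 0.000426) and higher than liver by 1.98 (adjusted p = 0.00134). Without the male liver library it was called lower than liver, by -2.11 (adjusted p = 0.00158).

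Marmoset CUX2, added by gene ID, also had its highest mean level in liver, with the male liver above the female. It stood at 2.42 and 3.39 FPKM in female and male brain and at 2.14 and 6.14 FPKM in female and male liver. Heart and kidney were at 0.062 FPKM or less. Brain and liver overlapped and did not pass the test (-0.29 ± 0.31, limma adjusted p = 0.442), and the sign turned to 0.22 without the male liver. Brain was called higher than the mean of the 3 tissues (1.18 ± 0.25, adjusted p = 0.00618), and this call was lost without the female (adjusted p = 0.0654) or the male brain column (adjusted p = 0.0653). Heart, kidney and liver differed from each other by a range of 2.20 (limma F-test, adjusted p = 0.00179).

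The rat female liver library also held low levels of genes of other tissues, given here because Cux2 and several small liver values come from it. Of the 10 pan-neuronal genes all 10 were above 0 there and 4 in male liver, with summed levels of 9.54 and 0.542 FPKM against 1471 and 1664 FPKM in the brain columns. Snap25, a synaptic vesicle fusion gene, was at 5.21 FPKM in female and 0.0518 FPKM in male liver. Of the 6 kidney markers all 6 were higher in female than in male liver, with sums of 5.78 and 0.526 FPKM, and 3 of the 6 germ cell markers were above 0, with sums of 9.98 and 0 FPKM. Cardiac muscle genes went the other way: all 7 were above 0 in both livers, 1 of the 7 was higher in the female, and the sums were 10.14 FPKM in female and 52.62 FPKM in male liver. Of the 9 cortical neuron markers 7 were above 0 in female and 3 in male liver. Most genes were above 0 in both: of all 20486 rat genes, 16075 in female and 14993 in male liver. The female liver level of Slc17a7 was 0.0132 of the female brain level, that of Nrgn 0.0398 and that of Camk2a 0.00978, while for Cux2 it was 5.56. Such low levels were not particular to the female liver library. In rat female and male heart Kap stood at 23.36 and 0 FPKM, and Snap25 at 1.68 and 0 FPKM. Serpina1, a liver gene, went the other way there, at 3.31 and 15.32 FPKM. These heart values were chosen after they were seen. The part of the other tissues' genes in these liver and heart values was not tested.

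Bdnf, brain-derived neurotrophic factor, had its highest mean level in brain in the marmoset and in heart in the rat. In the marmoset it was at 6.36 and 6.13 FPKM in female and male brain and at most 0.231 FPKM in heart, kidney and liver (2.70 ± 0.14, limma adjusted p = 1.66e-05). The marmoset ovary library had 1.48 FPKM. In the rat the hearts were the highest tissue, at 3.05 FPKM in the female and 3.95 FPKM in the male, above the brain columns at 1.73 and 2.88 FPKM. The rat kidneys and livers were at 0.0209 FPKM or less. Both rat hearts lay above both brain columns, but the difference of -0.46 ± 0.19 did not pass (limma, adjusted p = 0.0883).

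Rat Bdnf in brain was called higher than in kidney (1.68 ± 0.19, limma adjusted p = 0.00055) and in liver (1.69 ± 0.19, adjusted p = 0.000375). Against the mean of the 3 tissues its difference of 0.97 ± 0.16 had an adjusted p of 0.0019 and stayed just under the fold threshold of 1. It passed that threshold with a pseudocount of 0.1 (2.71), and at 1.01 to 1.18 without the female brain, female kidney or female liver library. The range among heart, kidney and liver was 2.15 (limma F-test, adjusted p = 0.00022). With CAMK2A and NRGN differing among the 3 tissues in the marmoset and Camk2a and Bdnf in the rat, 2 of 6 and 2 of 8 of the genes did so.

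**Figure D3:**
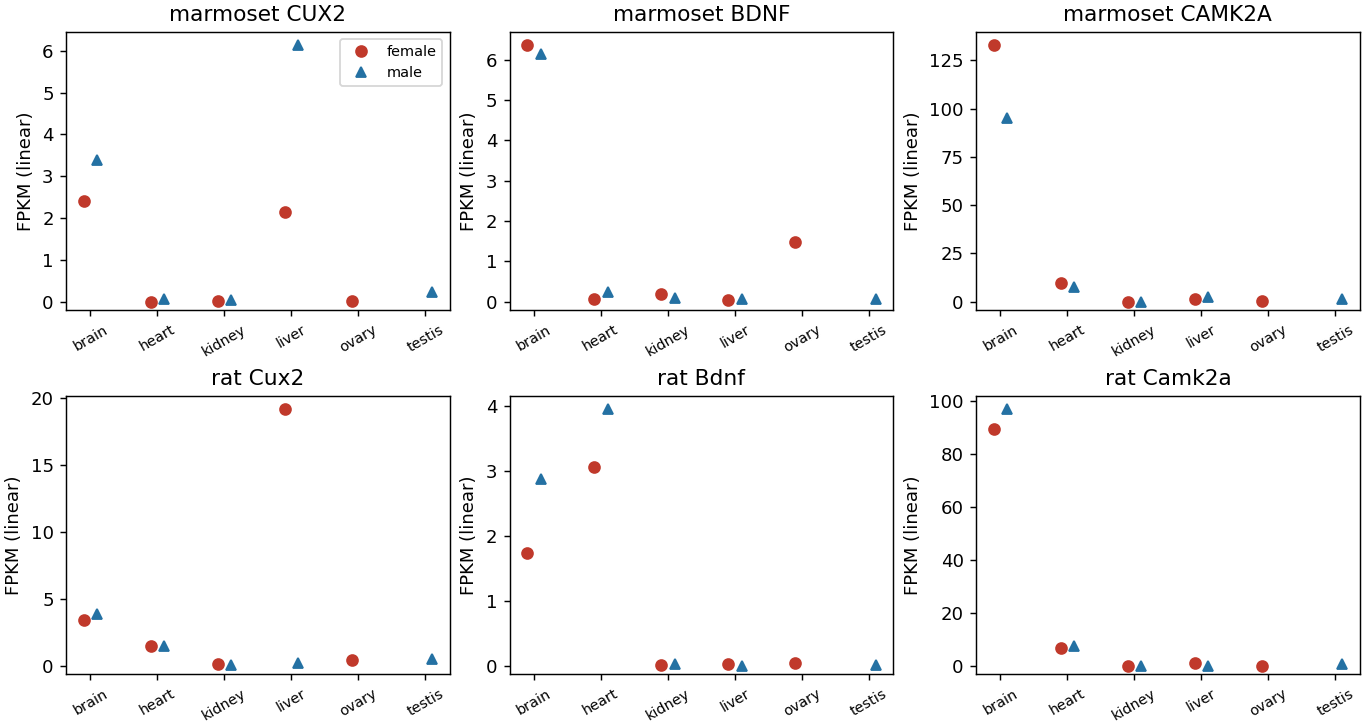
FPKM on a linear axis of Cux2, Bdnf and Camk2a by tissue in the marmoset (top) and the rat (bottom), with 1 point per column, circles female and triangles male; the marmoset CUX2 row was added by gene ID. The single high point of rat Cux2 is female liver at 19.2 FPKM, the rat Bdnf hearts lie above the brain columns, and Camk2a in heart lies between 6.62 and 9.76 FPKM in the 2 species.

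In order of their mean brain level, the marmoset genes ran from NRGN (259 ± 74.7 FPKM, SD, n = 2) through SLC17A7 (167 ± 11.5), CAMK2A (114 ± 26.7), LMO3 (77.6 ± 18.6), TBR1 (19.2 ± 4.33), NEUROD6 (14.8 ± 11.9), BDNF (6.25 ± 0.163) and CUX2 (2.91 ± 0.689) to RORB (2.83 ± 2.47). The ranges of TBR1 and NEUROD6 overlapped, as did those of CUX2 and RORB, and the other neighbours lay apart. The rat order was Slc17a7 (177 ± 90 FPKM, SD, n = 2), Nrgn (108 ± 48), Camk2a (93.4 ± 5.23), Lmo3 (7.82 ± 4.19), Tbr1 (6.08 ± 0.737), Neurod6 (5.54 ± 0.462), Cux2 (3.67 ± 0.313), Bdnf (2.31 ± 0.811) and Rorb (1.22 ± 0.371). There the first 3 overlapped with their neighbours and so did Lmo3, Tbr1 and Neurod6. In both species the 3 synaptic genes stood above the 5 transcriptional regulators in these columns. The gap was narrow only for marmoset LMO3, whose highest value was 90.72 FPKM against a lowest of 95.11 FPKM for CAMK2A. Against all genes of the table, NRGN and SLC17A7 ranked 72 and 149 in marmoset brain, and Slc17a7, Nrgn and Camk2a ranked 146, 286 and 354 in rat brain. RORB ranked 10174 in the marmoset and Rorb 11793 in the rat.

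A tissue-specificity index summarised the pattern over the 6 tissues, ovary and testis included. It is the mean shortfall of the other 5 tissues from the highest one on log2(FPKM + 1), from 0 for an even gene to 1 for a gene of 1 tissue. In the marmoset it was 0.992 for NEUROD6 and 0.97 for TBR1, and lowest for NRGN at 0.712 and CUX2 at 0.788. In the rat it was 0.992 for Rorb and 0.99 for Neurod6, and lowest for Cux2 at 0.585. Rat Tbr1, with its testis value, had 0.888. Low genes and high genes are not treated alike by the pseudocount, and the index is a description only.

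The genes with the most similar pattern were found by Pearson's r on log2(FPKM + 1) over the 10 columns of a species, among 11652 marmoset and 13747 rat genes with a symbol. The points share animals and libraries, so r is given with no p. Those named are among the 2 nearest of each gene. For marmoset TBR1 they were UNC80 (r = 0.9997) and SLITRK3, for SLC17A7 LAMP5 (r = 0.9962), and for BDNF SPHKAP (r = 0.9971) and FEZF2. For CAMK2A they were CPNE6 (r = 0.9693) and CADPS, for NRGN APLP1 (r = 0.987) and ZNF385A, and for RORB ZNF483 (r = 0.9759). The rows added by gene ID were nearest to SNTG1 and SLC7A14 for NEUROD6, SLC6A15 and SNAP91 for LMO3, and RADX and SHF for CUX2. In the rat they were Chgb and Hpca for Slc17a7, Pak7 for Neurod6, Siah3 and Dgki for Tbr1, Ephx4 for Nrgn, and Ntng1 and Fam171b for Lmo3. Rat Bdnf was nearest to Lrrc4b and Kcnj3 and Camk2a to RGD1559864 and RTN1, while Cux2 had no close match: its nearest gene, Rgs16, reached 0.8476, followed by A1bg.

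A list of 23 relatives and partners gave the wider families of these genes, of which 17 were found in the marmoset and 21 in the rat. Of 15 tested in the marmoset 10 were called higher in brain and 2 lower, with a median of 2.20 on log2(FPKM + 1). Of 17 tested in the rat 11 were higher and 1 lower, with a median of 1.97. Among all tested genes 4354 marmoset and 3944 rat genes were called lower in brain, more than the 2568 and 2567 called higher. The kinase subunits CAMK2B and CAMK2G had the highest brain levels of the list in the marmoset, at 75.19 and 99.37 FPKM and at 53.98 and 64.83 FPKM in female and male. In the rat these were Pcp4, a calmodulin-binding relative of neurogranin, at 137.1 and 202.6 FPKM and Camk2b at 67.12 and 109.2 FPKM. The genes of the list named in the next sentences were chosen after their values were seen.

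Camk2d, the kinase subunit of heart muscle, stood in heart at 82.86 and 70.85 FPKM in the marmoset and at 39.48 and 30.18 FPKM in the rat, several times the level of Camk2a there. It was also high in brain, at 42.42 and 36.35 FPKM in the marmoset and 23.74 and 44.93 FPKM in the rat. Brain was called higher than the mean of the other tissues by 1.09 in the marmoset (limma, adjusted p = 0.00142) and 2.33 in the rat (adjusted p = 0.000476). Ntrk2, the receptor of Bdnf, was a brain gene in both tables, with 41.55 and 32.88 FPKM in marmoset and 18.33 and 8.85 FPKM in rat brain. Ntrk2 was called higher in brain than the mean of the other tissues by 4.10 in the marmoset (limma, adjusted p = 1.2e-05) and 3.57 in the rat (adjusted p = 5.77e-05). Rat hearts, which had the higher Bdnf, held 0.121 and 0.449 FPKM of Ntrk2. The genes called lower in brain were CUX1, the relative of CUX2 (-1.31), and NGFR, a neurotrophin receptor (-1.55), in the marmoset, and Ntf3, another neurotrophin (-1.27), in the rat.

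The other cortical and forebrain genes, a list of 15 with none of the 9, described the brain columns by genes outside the set. In the marmoset 9 of 10 tested were called higher in brain (median 3.42), led by ETV1 at 149.7 and 126.8 FPKM and MEF2C at 63.33 and 48.56 FPKM in female and male. In the rat 9 of 13 tested were higher (median 2.56), led by Cck, a neuropeptide, at 60.16 and 116.2 FPKM and Lamp5 at 68.79 and 55.32 FPKM. The shares of all tested genes called higher were 17% and 17.6%. Not all genes of the list were particular to brain. ETV1 stood at 24.98 and 20.74 FPKM in marmoset kidney, and MEF2C at 17.48 and 9.20 FPKM in marmoset heart. Rat Emx1, named after its values were seen, was higher in kidney (9.06 and 14.73 FPKM) than in brain (1.88 and 4.35 FPKM). The rat leaders stayed at or below 1.89 FPKM in heart, kidney and liver. Genes of this list were thus present in each of the 4 brain columns.

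Cerebellar genes were present in the same columns. Beside the 17% and 17.6% of all tested marmoset and rat genes called higher in brain, all 15 tested marmoset genes of this list were called (median difference 4.68), and all 17 tested rat genes (median 3.59), of 18 found. Most of them, too, reach the filter through the brain columns. The highest in the marmoset were CALB1, a calcium buffer of Purkinje cells that is also made in kidney, at 208.4 and 310.3 FPKM, and ITPR1, the Purkinje cell calcium release channel, at 94.7 and 124.4 FPKM in female and male. In the rat they were Pcp2, a Purkinje cell gene, at 52.53 and 251.2 FPKM and Gabra6, the granule cell GABA receptor subunit, at 26.43 and 212.9 FPKM. GABRA6, named in the marmoset for comparison after its values were seen, stood at 98.06 and 119.7 FPKM. Each brain column of both species therefore held genes of the cortical and forebrain list and of the cerebellar list side by side. The part of each region in a column was not tested.

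The 2 rat brain columns differed in these lists, and the marmoset columns much less. Over the 11593 rat genes with at least 1 FPKM in both columns, the male to female ratio had a median of 1.01 and lay between 0.529 and 1.75 for the central 90 percent of genes. All 17 rat cerebellar genes at this level were higher in the male column, with ratios of 3.36 to 11.5 and a median of 5.46. A ratio of 3 or more was found in 0.914% of all these genes. The 6 oligodendrocyte genes, which make and wrap myelin, went the other way, with ratios of 0.13 to 0.316: Mbp stood at 1709 FPKM in the female and 286.3 FPKM in the male column. These are comparisons of 2 single columns, and no test was made.

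The 9 cortical markers followed neither extreme. In the rat, 6 of the 8 with at least 1 FPKM in both columns were higher in the male one, with a median ratio of 1.13. Slc17a7 (2.12) and Nrgn (1.92) lay above the central range of all genes, Lmo3 (0.45) lay below it, and Camk2a (1.08), Neurod6 (1.13), Cux2 (1.13), Tbr1 (0.842) and Bdnf (1.66) lay inside. Rorb, under 1 FPKM in the male column, had a ratio of 0.645. The other cortical and forebrain genes had a median of 1.93 with a wide spread, from 0.426 for Mef2c to 3.09 for Bhlhe22, a pair named as the ends of the range after the values were seen. The summed level of the cerebellar list was 209.3 FPKM in the female and 1196 FPKM in the male rat column, while that of the 9 markers was 306.5 and 503.9 FPKM. Pan-neuronal genes had a median ratio of 0.774 and inhibitory neuron genes one of 1.06. Both spread widely, from 0.149 to 2.3 and from 0.603 to 3.43. The part of cerebellar or myelin content in the sex difference of any of the 9 genes was not tested.

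In the marmoset, 12131 genes had at least 1 FPKM in both brain columns, with a median male to female ratio of 1.1 and a central 90 percent between 0.66 and 2.2. The cerebellar list had a median of 1.31, with 12 of 15 genes above 1 and a highest ratio of 1.65, and the other cortical and forebrain list one of 0.961. Among the 9 markers, added rows included, the median was 0.724 and 3 of 9 were above 1. RORB (0.237) and NEUROD6 (0.277) lay well below the central range, and the other 7 lay inside it, from 0.71 for LMO3 to 1.51 for NRGN.

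**Figure D4:**
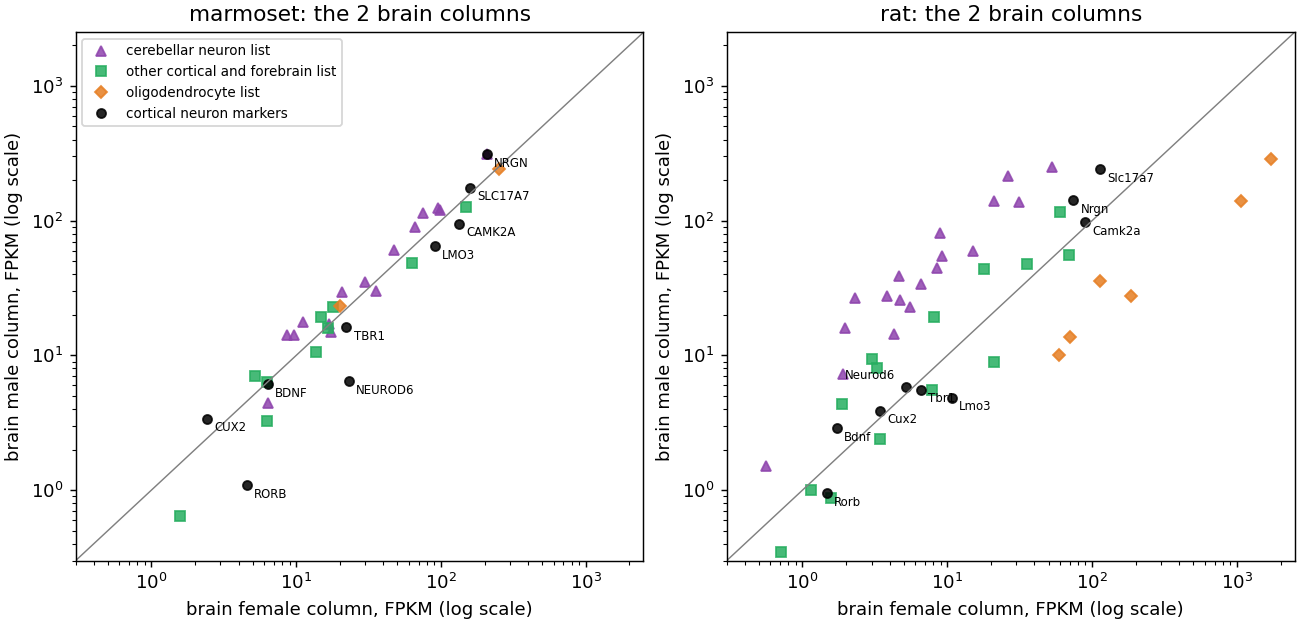
Male against female brain column, FPKM on log axes, for the marmoset (left) and the rat (right); each point is a gene of the cerebellar, other cortical and forebrain, or oligodendrocyte list or one of the 9 markers (black, labelled), and the line is equality. In the rat the cerebellar genes lie above the line (ratios 3.36 to 11.5 for those with at least 1 FPKM in both) and the oligodendrocyte genes below it (0.13 to 0.316), with the 9 markers between 0.45 and 2.12; in the marmoset RORB and NEUROD6 lie lowest against the line.

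Genes of other brain regions were looked at in the same columns. In the rat Slc17a6, the glutamate transporter of many subcortical neurons, chosen after its values were seen, was at 17.3 FPKM in the female and 0.631 FPKM in the male column, the reverse of Slc17a7. Ttr and Otx2, genes of the choroid plexus, were at 402.7 and 3.00 FPKM in the female and at 7.27 and 0.253 FPKM in the male rat column. OTX2 stood at 6.04 and 0.442 FPKM in the female and male marmoset columns. The other 2 marmoset genes of this list were near 0 in both. FOLR1 stood at 0.364 and 0.450 FPKM and KL at 0.202 and 0.163 FPKM. Of the choroid plexus genes, 0 of 2 tested in the marmoset and 0 of 3 in the rat were called higher in brain. In each species 2 were called lower, beside 28.8% of all tested marmoset and 27.1% of rat genes. Of 6 striatal genes tested in the rat 5 were called higher in brain and 1 lower, beside 17.6% and 27.1% of all tested genes. The highest of the list in rat brain was Penk at 37.65 and 17.65 FPKM. It also stood at 11.13 FPKM in female and 38.79 FPKM in male rat heart. Of the hypothalamic and pituitary genes, Oxt and Gh1 were listed at 0 in both rat brain columns, and the 2 highest, Pomc and Hcrt, stood at 0.40 and 0.345 FPKM and at 0.504 and 0.119 FPKM in female and male.

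The remaining cell types of brain tissue were found in all columns. Inhibitory neuron genes were called higher in brain for 6 of 6 tested in the marmoset and 8 of 8 in the rat, with medians of 4.83 and 4.04. Of all tested marmoset and rat genes, 17% and 17.6% were called higher. Several genes of the lists given here reached the filter only through the brain columns, so that they had to differ. PVALB stood at 152.9 and 211.8 FPKM in the marmoset and at 52.74 and 164.7 FPKM in the rat, and GAD1 at 50.52 and 60.79 FPKM and at 78.64 and 81.39 FPKM in female and male. Astrocyte genes were higher for 5 of 5 and 6 of 6, led by ALDOC, an enzyme also found in Purkinje cells, and SLC1A3. Pan-neuronal genes were higher for 8 of 8 and 10 of 10, led by ENO2 and STMN2 in the marmoset and Snap25 and Eno2 in the rat. In the marmoset the 2 oligodendrocyte genes found had male to female ratios of 0.961 and 1.16 in the brain columns. One of them, CNP, stood at 20.16 FPKM in female and 23.36 FPKM in male brain.

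Microglia genes were mixed. The shares of all tested genes were 17% higher and 28.8% lower in the marmoset, and 17.6% higher and 27.1% lower in the rat. In the marmoset 2 of 4 tested were called higher in brain, P2RY12 and CX3CR1, and the other 2, CSF1R and AIF1, were called lower. In the rat 2 of 4 were called higher, P2ry12, at 10.65 and 7.77 FPKM in female and male, and Cx3cr1, and none lower. CSF1R, AIF1 and Cx3cr1 were named after their values were seen. Of the brain endothelial genes 2 of 3 were called higher in the marmoset and none lower, and 3 of 4 were called higher and 1 lower in the rat. SLC2A1 stood at 19.49 and 30.48 FPKM in the marmoset columns and Cldn5 at 21.38 and 26.58 FPKM in the rat columns. Markers of other organs were not higher in brain: none of the cardiac, kidney or liver genes tested was called higher in either species. AQP2, a kidney water channel, and TNP1, a germ cell gene, were listed at 0 in both marmoset brain columns. TNP1 stood at only 0.169 FPKM in the marmoset testis column, so its 0 in brain says little.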

How the data were processed

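The values used are FPKM as the authors deposited them, in a table for each species. The table names call the values normalized and give all tissues. Over the fitted marmoset libraries the summed FPKM ran from 210700 in female brain to 1687000 in male liver. Over the fitted rat libraries it ran from 578400 in male brain to 3551000 in male heart. The submitters' processing notes name TopHat 1.4.0 and Cufflinks 2.0.0. For build, annotation, use of strand in counting and the normalization method, the entry is: not given in the sources used here. Only the marmoset libraries are labelled strand-specific. The 10 value columns of the wallaby table and the elephant fibroblasts were not used. The 3 added marmoset rows were named through an Ensembl name table that matched 12572 marmoset IDs.

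The 8 brain, heart, kidney and liver libraries of each species were fitted on log2(FPKM + 1) with limma 3.58.1 (R 4.3.3), with a mean-variance trend and the animal as a block. The pairing comes from the labels, which give 1 individual per sex; male minus female differences correlated between tissues at 0.541 to 0.716 in the marmoset and 0.143 to 0.506 in the rat. With 1 animal per sex, p-values measure the spread between these libraries only. A fold on this scale understates changes of low genes. The script was tested on simulated data. The members and gene lists were chosen with earlier results of these data known. By rule the text names the 9 members, the 2 genes of each list with the highest brain mean, list genes at 0 in both brain columns, and the 2 genes most like each member; others are marked where they appear, and some genes that the rule selects are not reported here. Alternatives were the pseudocount (0.1), the filter (none, or 5 FPKM), quantile normalization, no trend, no replicate block, and each library left out.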

Additional observations from a re-analysis of the deposited data

Results flagged for a closer look

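Rat Cux2 moved in opposite directions in the 2 sexes when brain was set against liver: the difference on log2(FPKM + 1) was -2.18 in the female and 2.05 in the male. Each value is 1 library against 1 column, and the difference between the sexes was not tested.

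BDNF moved in opposite directions in the 2 species when brain was set against heart. Both marmosets had more in brain, by 2.78 in the female and 2.53 in the male, and both rats had less, by -0.57 in the female and -0.35 in the male. The tables were normalized apart and the difference between species was not tested.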

How the results depend on the processing

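The markers called higher in brain numbered 6 in each species, and also 6 in each without the replicate block and after quantile normalization. Leaving out 1 library, where the lone library left is assumed to vary like the other groups, gave 3 to 6 markers in the marmoset and 3 to 8 in the rat; the low counts came without a brain column, where genes expressed in brain alone no longer reach the filter, and 8 without rat female liver. The genes higher in brain then numbered 1689 to 2616 in the marmoset and 1546 to 2580 in the rat, those higher than in each tissue 834 to 1692 and 755 to 1742. Without the replicate block 2369 (2568 with it) marmoset and 2525 (2567) rat genes were higher, and 4678 (7440) marmoset genes differed among heart, kidney and liver. With a filter of 5 FPKM 1710 rat genes were higher (2567) and 1172 higher than in each tissue (1759), fewer being tested. Brain against liver changed sign for CUX2 in the marmoset without male liver (0.22; -0.80 without female liver) and for Cux2 in the rat with a pseudocount of 0.1 (0.69), without the female brain column (0.71) and without female liver (1.98; -2.11 without male liver). With a pseudocount of 0.1 rat Cux2 was also called against kidney (4.41) and SLC17A7 differed among the 3 other marmoset tissues (1.65). The depth is unknown, so values near 0 carry no counting error.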
